A study of Homo sapiens and Mus musculus with 6 samples.

Results

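The promoters of 10 transcription factors that direct B lymphocyte development and identity were followed through promoter Capture Hi-C (CHi-C) data of GM12878 cells. The genes were *PAX5*, *EBF1*, *IKZF1*, *IKZF3*, *POU2AF1*, *POU2F2*, *SPI1*, *SPIB*, *BCL11A* and *TCF3*, chosen by symbol among the names that the contact list gives to its restriction fragments. All 10 were named there, among 21998 gene symbols, and 163 of 92929 calls (0.175%) had one of them at either end. The same symbols, compared without regard to case, were then looked up in the contact list of mouse embryonic stem cells (mESCs), where 8 of the 10 were named and 103 of 101841 calls (0.101%) carried them.

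In CHi-C, ligation products of a *Hin*dIII Hi-C library are enriched with RNA baits for fragments that hold annotated promoters, so that each call joins a baited promoter to an other end anywhere in the genome. GM12878 is a human lymphoblastoid line, B cells immortalised with Epstein-Barr virus and grown as 1 established line, and 3 biological replicates of it were merged before calling. The mESCs were of the J1 line, from strain 129S4/SvJae, grown on feeder cells that were removed before fixation, with 2 CHi-C replicates merged and 1 Hi-C library; neither cell type carried a treatment. Each cell type therefore had 1 set of calls, without a spread between replicates, and differences between the 2 lists are described and not tested: species, cell type, capture design and depth cannot be told apart. A contact list holds no expression values, so the labelled cell types could not be checked by marker genes.

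Each call came with a CHiCAGO score, which rises as a read count exceeds the background expected for that distance and those fragments and which was at least 5 in every call, and with a read count averaged over replicates. GM12878 had calls from 15389 baits with a median of 3 per bait and a median *cis*-chromosomal distance of 173.7 kb, and mESCs had 16265 such baits, also with a median of 3, and a median distance of 139.1 kb. All fragment ends of the members' calls, 580 of 580 with the mouse calls under the older symbol *Sfpi1* included, matched the *Hin*dIII fragments of the hg19 or mm9 genome. None of these calls was *trans*-chromosomal.

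B cell development runs through a small network of such factors. SPI1 (PU.1) and IKZF1 (Ikaros) act early in blood progenitors, TCF3 and EBF1 specify the B lineage, and PAX5 commits cells to it and keeps them there. POU2F2 (OCT2) and its coactivator POU2AF1 (OBF1), SPIB and IKZF3 (Aiolos) act later, in mature and activated B cells, and BCL11A is needed for lymphoid progenitors and is also known as a repressor of fetal globin.

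The joined stretches of DNA are shown here for the contacts that the results turn on. A call starts from the cut ends of 2 fragments. For the *EBF1* contact, which had a counterpart in the mouse, 60 bases at a cut end of each fragment are given, with the *Hin*dIII site in capitals. In hg19 these are chr5:158520314-158520373, in the promoter fragment and an intron of *EBF1*, and chr5:158122542-158122601, just beyond the gene's 3′ end. In mm9 they are chr11:44425937-44425996, upstream of *Ebf1*, and chr11:44824401-44824460, beyond its 3′ end. All are from the plus strand.
EBF1 promoter fragment: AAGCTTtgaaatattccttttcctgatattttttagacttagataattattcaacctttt
EBF1 gene-end fragment: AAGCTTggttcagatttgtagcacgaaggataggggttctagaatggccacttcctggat
Ebf1 promoter fragment: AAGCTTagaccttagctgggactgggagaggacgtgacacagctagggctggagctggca
Ebf1 gene-end fragment: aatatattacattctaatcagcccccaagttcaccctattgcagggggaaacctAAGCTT

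Recognition letters of the members themselves were searched on both strands: GAGGAAGT for PU.1 and SPIB, ATGCAAAT for the octamer of POU2F2, TCCC and GGGA set apart by any 2 bases for EBF, CAGGTG for E proteins and TGGGAA for Ikaros. A factor can bind without them, and they can occur without binding. For the members named below, the fragment shown is the one with the highest score that held, outside exons, at least 1 of the 3 rarer motifs, and 300 bases around that match are given from the plus strand of hg19 with every match in capitals. The *PAX5* stretch, chr9:37405290-37405589, lies outside protein-coding genes beyond the end of *ZCCHC7* and holds an EBF match that overlaps an Ikaros match, and a further Ikaros match. The *EBF1* stretch, chr5:158122596-158122895, lies just beyond the end of *EBF1* and holds an octamer. The *IKZF1* stretch, chr7:50176172-50176471, lies in an intron of *SPATA48* and holds a PU.1 match. The *IKZF3* stretch, chr17:38076660-38076959, is in the fragment with the *GSDMB* and *ORMDL3* promoters and holds a PU.1, an EBF and an Ikaros match. The *POU2F2* stretch, chr19:42618176-42618475, lies in an intron of *POU2F2* and holds an EBF and an E-box match.
PAX5 partner: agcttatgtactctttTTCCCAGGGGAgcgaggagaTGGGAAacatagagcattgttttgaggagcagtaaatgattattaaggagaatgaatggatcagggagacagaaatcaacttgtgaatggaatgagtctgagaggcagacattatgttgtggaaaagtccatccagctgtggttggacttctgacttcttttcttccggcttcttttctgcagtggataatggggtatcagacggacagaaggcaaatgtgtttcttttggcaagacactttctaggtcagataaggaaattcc
EBF1 partner: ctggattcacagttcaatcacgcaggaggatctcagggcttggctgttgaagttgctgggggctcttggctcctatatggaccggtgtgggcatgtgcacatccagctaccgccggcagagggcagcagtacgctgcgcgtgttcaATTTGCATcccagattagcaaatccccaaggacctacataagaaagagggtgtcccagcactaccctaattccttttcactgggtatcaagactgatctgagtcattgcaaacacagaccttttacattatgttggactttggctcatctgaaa
IKZF1 partner: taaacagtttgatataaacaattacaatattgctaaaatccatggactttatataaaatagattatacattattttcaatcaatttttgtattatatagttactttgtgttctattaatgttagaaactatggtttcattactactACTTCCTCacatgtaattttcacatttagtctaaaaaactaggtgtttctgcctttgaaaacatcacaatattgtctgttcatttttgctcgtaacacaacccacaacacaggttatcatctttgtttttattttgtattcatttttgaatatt
IKZF3 partner: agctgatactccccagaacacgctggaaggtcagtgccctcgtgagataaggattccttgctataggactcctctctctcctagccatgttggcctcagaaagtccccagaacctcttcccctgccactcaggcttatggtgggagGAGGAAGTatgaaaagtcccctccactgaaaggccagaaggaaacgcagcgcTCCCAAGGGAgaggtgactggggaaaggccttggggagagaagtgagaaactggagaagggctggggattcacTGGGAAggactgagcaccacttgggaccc
POU2F2 partner: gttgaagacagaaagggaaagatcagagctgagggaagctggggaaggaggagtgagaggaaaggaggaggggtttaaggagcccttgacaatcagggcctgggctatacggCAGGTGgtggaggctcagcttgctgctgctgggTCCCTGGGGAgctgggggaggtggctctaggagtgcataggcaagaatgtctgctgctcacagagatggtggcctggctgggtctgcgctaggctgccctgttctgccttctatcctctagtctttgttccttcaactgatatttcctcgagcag

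The stretches were picked for these letters, so their presence is a description only. Among all 3186997 consecutive 300-base stretches of the human chromosomes that carry members, 1.55% held the PU.1 letters, 2.95% the octamer, 0.447% the EBF letters, 21.7% the E-box and 23.1% the Ikaros letters. The members' own promoters were looked up in RefSeq (GRCh38.p14, from 250 bases before to 50 after the start). *PAX5*, *EBF1*, *IKZF1*, *POU2F2*, *SPIB*, *BCL11A* and *TCF3* matched an entry, and the only letters found were those of Ikaros, in 1 of 1 promoter of *EBF1*, 1 of 3 of *IKZF1* and 2 of 5 of *BCL11A*, against 24% of 35116 promoters.

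The number of contacts differed widely among the members (the bar chart of calls by member). In GM12878, *POU2F2* had 58 calls from its baits, *PAX5* 25, *TCF3* 22 and *IKZF1* 20, whereas *IKZF3* had 7, *POU2AF1* 3, *EBF1*, *SPI1* and *SPIB* 2 each and *BCL11A* 1. Thus 4 of 10 members had at least 20 calls, against a background of 7.19% of all GM12878 symbols. *PAX5*, *POU2F2* and *TCF3* each had a pair of baited promoter fragments with calls, and the other members 1 each. Calls were summed over the baits of a symbol, and no single bait of *PAX5* (16 and 9 calls) or *TCF3* (10 and 12) had 20. The median over members was 5 calls, and 3 over all symbols.

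**Figure D1:**
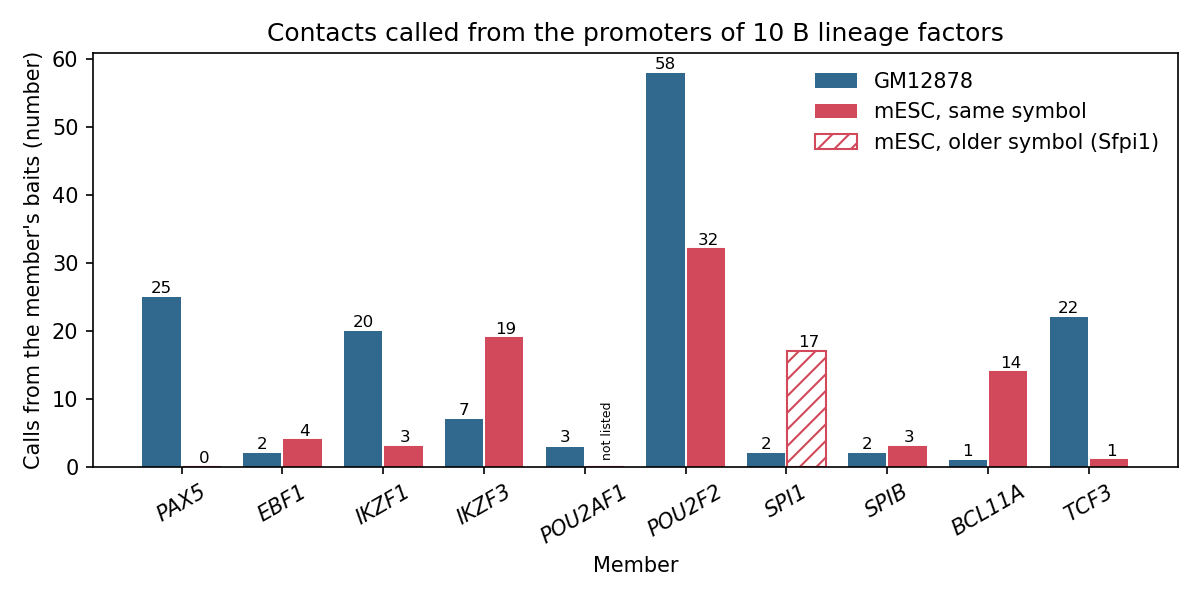
Bars give the number of calls from the baited promoter fragments of each member in GM12878 (blue) and mESCs (red), with the older mouse symbol of *SPI1* hatched; each bar is 1 merged list, so there are no error bars. *POU2F2* leads in both lists with 58 calls from 2 baits and 32 from 1, and *PAX5* has 25 from 2 baits against 0.

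Where the contacts lay also differed. Of the 142 calls from member baits in GM12878, 45 (31.7%, 95% Wilson interval 24.6 to 39.7) lay inside the member's own gene, 37 (26.1%, 19.5 to 33.8) reached a fragment with the start of another protein-coding gene, and 26 (18.3%, 12.8 to 25.5) reached a baited fragment, against 29.4% of all GM12878 calls for the last. *POU2F2* alone gave 31 of the 45 calls and 17 of the 37, and *IKZF1* gave 10 of the 45, so these shares mainly describe single genes. Neither of these shares was computed over all GM12878 calls. These intervals cover counting error only, and calls from 1 bait are not independent. The median distance was 109.4 kb over the members' calls, and it was 62.2 kb for *POU2F2* but 298.0 kb for *PAX5*.

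**Figure D2:**
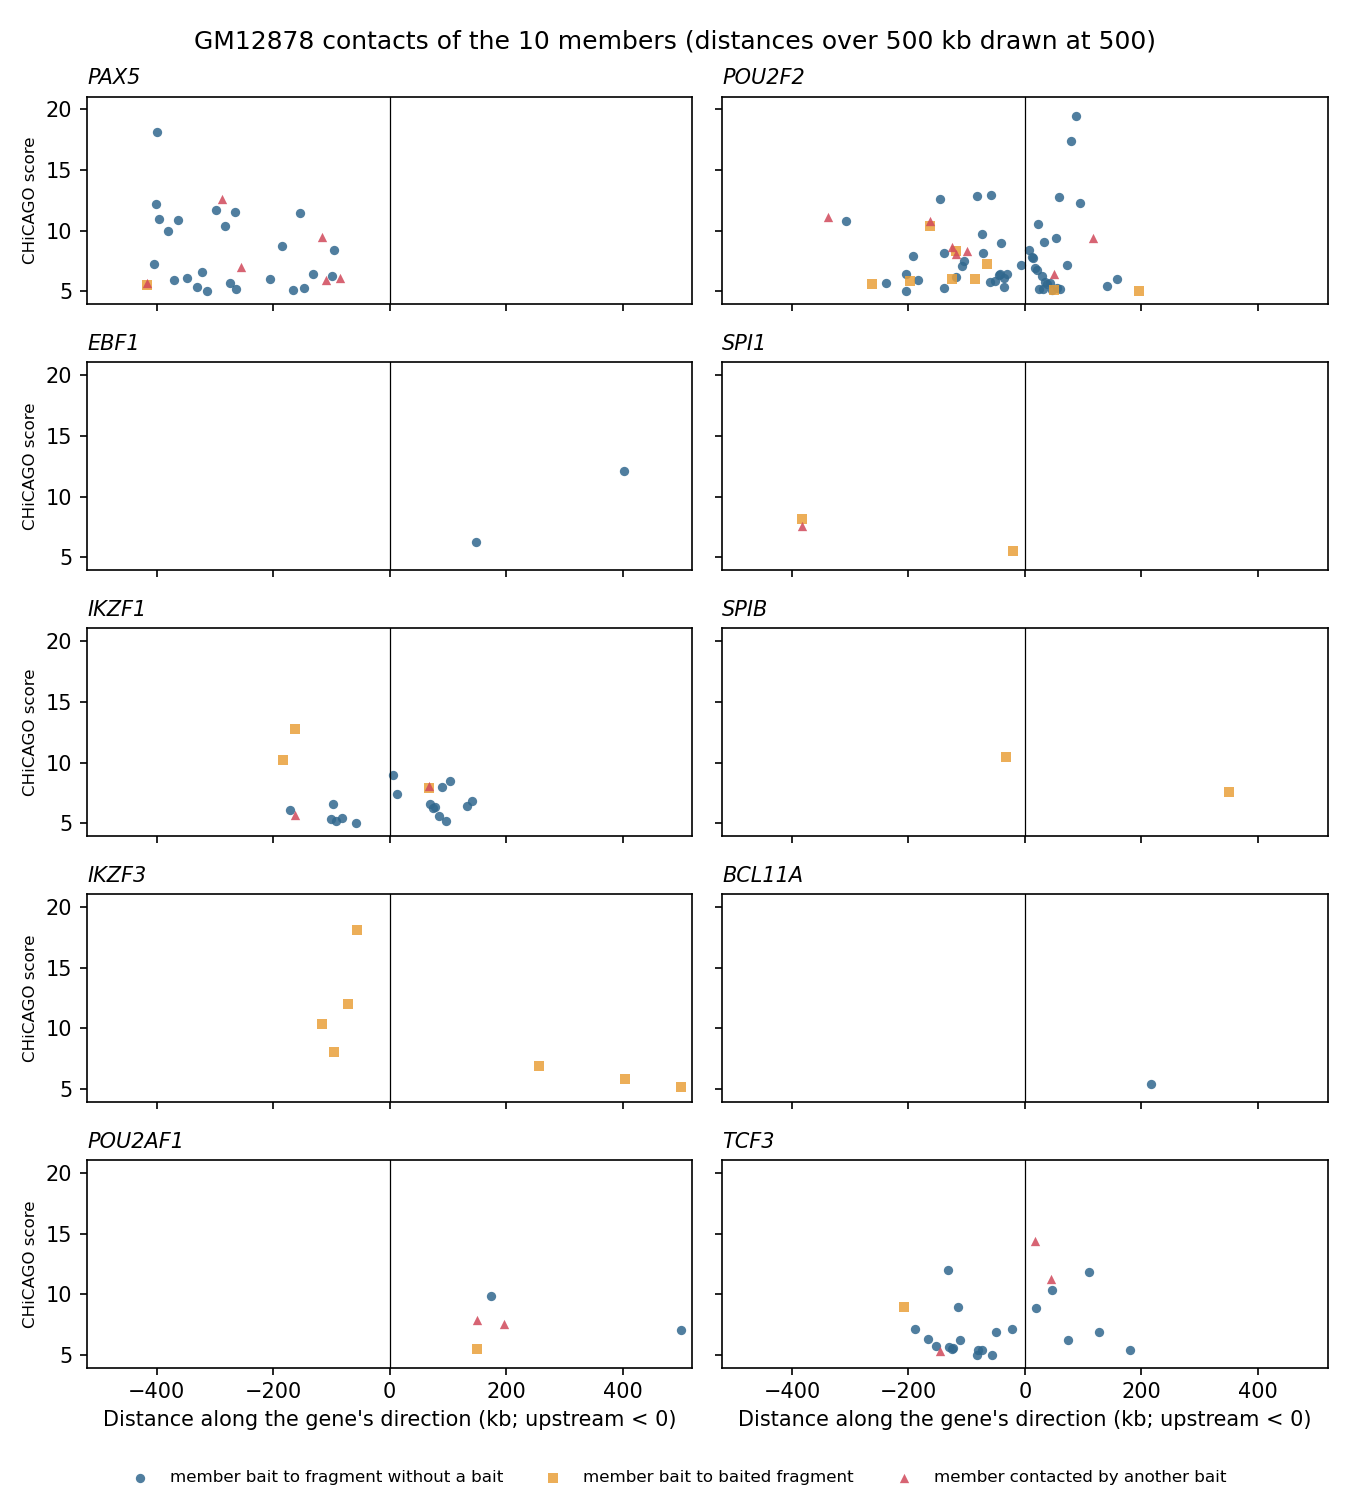
Each panel plots the GM12878 calls of 1 member, with distance along the gene's direction on the horizontal axis (kb, upstream below 0, distances over 500 kb drawn at 500) and the CHiCAGO score on the vertical axis; circles are calls to fragments without a bait, squares calls to baited fragments and triangles calls from another bait to the member. All *PAX5* calls sit on the upstream side, all *IKZF3* calls reach baited fragments, and *POU2F2* calls crowd around the gene.

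*PAX5*, the commitment factor, was joined to a long stretch on its upstream side and to nothing in its own gene. Its bait at chr9:37000340-37008401 had 16 calls and the bait at chr9:37031360-37041767 had 9 (hg19), and all 25 lay upstream, 95.2 to 417.2 kb away, with 10 to 24 reads. Of these, 16 lay in *ZCCHC7*, which encodes a zinc knuckle protein, and 8 outside protein-coding genes. Baits with 5 or more *cis* calls had them all on 1 side in 28.2% of cases over the GM12878 list, so the 1-sided pattern alone was common. It held for both *PAX5* baits.

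The highest *PAX5* score, 18.06 on 22 reads, was to chr9:37403399-37405289, 400.0 kb from the bait. That fragment was the second in a run of 4 neighbouring fragments, chr9:37398322-37411653 and 13.3 kb in all, that were each called with *PAX5*; their scores were 10.97, 18.06, 12.2 and 7.28 from the inner bait, and the 12.2 belongs to the fragment whose sequence is shown above. The run lies beyond the 3′ end of *ZCCHC7* and ahead of *GRHPR*, which encodes a glyoxylate reductase. The outer bait reached the same run once, with a score of 10.85 on 15 reads. The baits shared 5 partner fragments, 31.2% of those of the inner bait and 55.6% of those of the outer.

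Other promoters called *PAX5* as well. The *ZCCHC7* promoter as bait called *PAX5* in both of its fragments, with 9.46 as the higher score on 12 reads, and 6 calls in all from other baits ended at *PAX5*, of which 5 were not returned by a *PAX5* bait. Only *GRHPR* and the inner *PAX5* bait called each other over 417.2 kb on 16 reads, with 5.68 from *GRHPR* and 5.5 from *PAX5*. The highest score of a call to *PAX5* was 12.59 on 9 reads, from the promoter listed as *AL158155.1* inside *ZCCHC7*, 288.0 kb away. In mESCs, in contrast, no call started from *Pax5*, and the only one that ended there came from *Clta*, the clathrin light chain gene, 706.9 kb away on 3 reads.

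**Figure D3:**
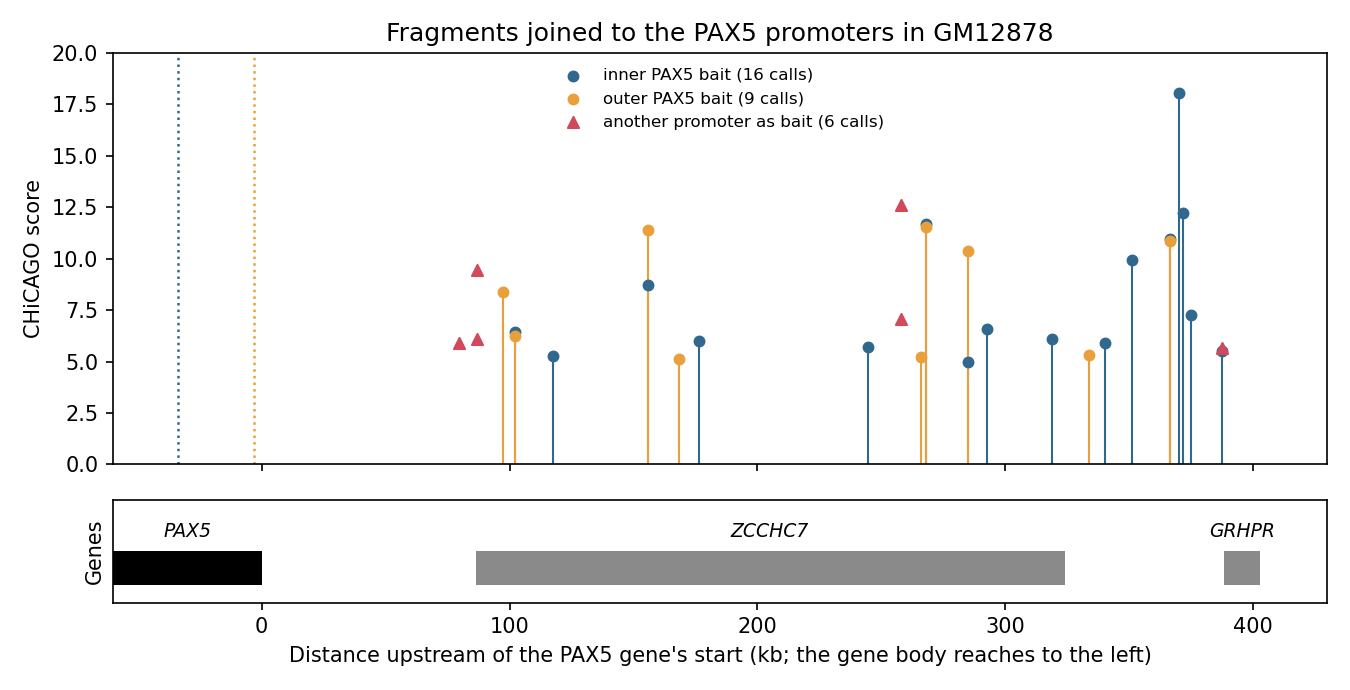
The upper panel plots the score of each GM12878 call against the position of the partner fragment, in kb upstream of the start of the *PAX5* gene, for the inner bait (blue), the outer bait (orange) and other promoters as baits (triangles); dotted lines mark the starts of the bait fragments, and the lower panel draws the genes to the same scale. Partners spread over *ZCCHC7* and peak at 18.06 between *ZCCHC7* and *GRHPR*.

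*EBF1*, which specifies the B lineage together with TCF3, had only 2 calls in GM12878, both within its own gene of 404.0 kb. The stronger joined the promoter to chr5:158122543-158124208 at the gene's 3′ end, 403.1 kb away, with a score of 12.09 on 14 reads. The other reached an intron at chr5:158377431-158380712, 147.4 kb away, with 6.26 on 15 reads. In mESCs *Ebf1* had 4 calls, and the strongest joined its promoter to chr11:44819258-44824455 (mm9) at the 3′ end of the gene, 392.9 kb away, with a score of 30.74 on 26 reads. The gene was thus joined end to end in both lists.

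Such a contact was uncommon. Among genes of at least 100 kb with calls, 6.44% of 2065 in GM12878 and 5.83% of 1338 in mESCs were joined to the fragment with their annotated end, and *EBF1* was the only member of that size of which this was true in GM12878. Aligned with blastn, the human and mouse gene-end fragments aligned over 1748 columns, gaps included, at 77.6% identity. The human partner in the intron also aligned to the mouse gene, over 2539 columns at 77.9%, but its mouse fragment was not called. The octamer in the 300 bases shown lies beyond the annotated end of *EBF1*.

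**Figure D4:**
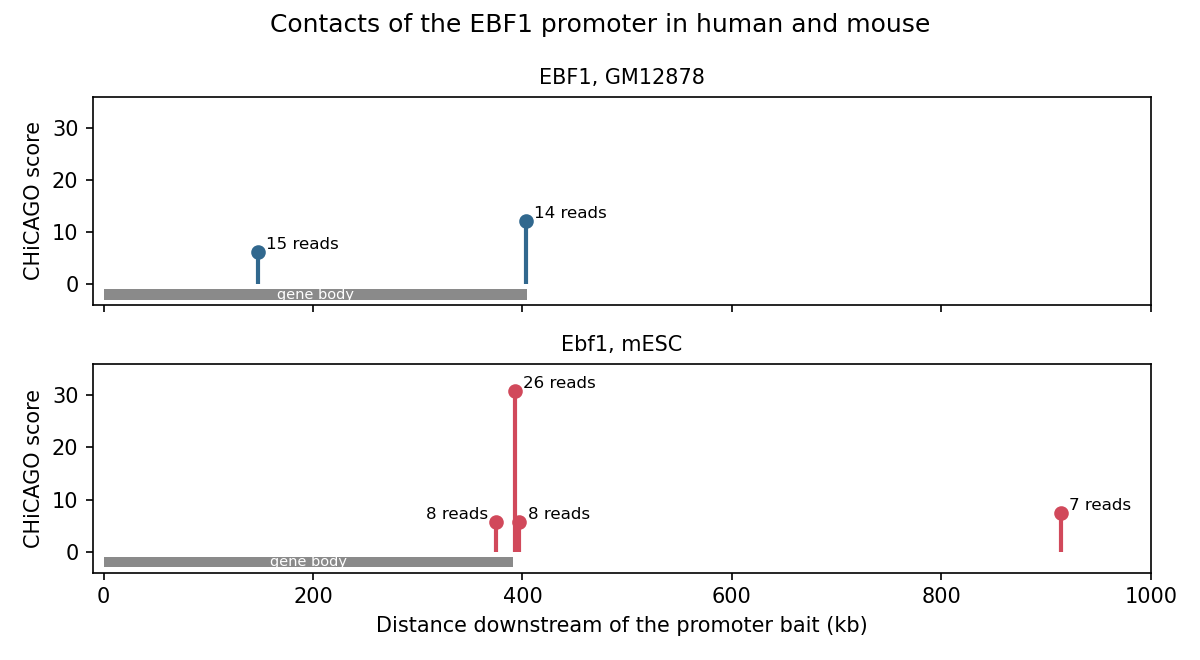
Lines give the score of each call from the *EBF1* bait in GM12878 (upper) and the *Ebf1* bait in mESCs (lower) at its distance downstream in kb, labelled with its reads; the grey bar is the length of the gene drawn from the bait. The tallest line in each panel, 12.09 and 30.74, stands at the end of the gene.

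In GM12878 the Ikaros family members had opposite layouts. *IKZF1* had 20 calls from 1 bait, chr7:50341186-50347256, of which 8 lay upstream and 12 downstream, and 10 of these fell inside *IKZF1* itself at 6.43 to 103.7 kb. The highest scores, however, were upstream: 12.72 on 17 reads to a baited fragment in *SPATA48*, 162.4 kb away, which called *IKZF1* in return with 5.66, and 10.18 on 16 reads to the promoter of *ZPBP*, a sperm protein gene, 183.6 kb away. Within the gene, the highest was 8.95 on 35 reads, 6.43 kb from the bait. In mESCs *Ikzf1* had 3 calls, none in its own gene, and the strongest, 11.87 on 15 reads, joined it to *Grb10*, an imprinted growth regulator, 354.6 kb away. That pair was not called in GM12878. Another, 6.2 on 12 reads over 221.9 kb, reached a fragment with the start of *Zpbp*, the gene also contacted in GM12878.

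*IKZF3* had 7 calls, and all of them reached baited promoter fragments, with none in its own gene; its bait fragment also carries *ZPBP2*. Upstream were the fragment with *GSDMB* and *ORMDL3* (18.12 on 43 reads, 55.5 kb), that with *LRRC3C* and a further start of *ORMDL3* (12.05 on 30 reads, 72.0 kb), *GSDMA* (8.08 on 21 reads, 95.5 kb) and the proteasome subunit gene *PSMD3* (10.36 on 19 reads, 115.5 kb). ORMDL3 regulates sphingolipid synthesis, and the gasdermins form membrane pores. Downstream were *NEUROD2*, a neuronal transcription factor (6.95, 256.7 kb), the kinase gene *CDK12* (5.84, 404.1 kb) and *RPL19* with *CACNB1* (5.23, 666.6 kb), on 10, 9 and 7 reads. Scores thus fell with distance on the downstream side.

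In mESCs *Ikzf3* had more calls, 19, of which 17 were downstream, 2 lay in its own gene and 8 reached baited fragments. The strongest was to *Neurod2*, 31.66 on 45 reads at 219.4 kb, returned by *Neurod2* with 16.36. Of the pairs seen in GM12878, those with *NEUROD2*, *ORMDL3* and *GSDMA* were also called in mESCs by name. By annotated start the pair with *CDK12* was called there too, at 10.25 and 5.27 in return on 18 reads over 279.6 kb. The mouse fragment holds an annotated *Cdk12* start and is listed as AL591205.1. The human *CDK12* fragment, however, aligned to chr11:98061307-98065799 (mm9), which was not called. From the *IKZF3* bait, *NEUROD2* had a score of 6.95 in GM12878 and 31.66 in mESCs. For *ORMDL3* it was 18.12 from the *IKZF3* bait in GM12878 and 8.23 from the *Ormdl3* bait in mESCs. The mouse *Ikzf3* bait did not call *Ormdl3*, so these *ORMDL3* scores are of opposite directions and not alike. Neither difference could be tested.

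*POU2F2*, the octamer factor, had the most calls of all members. Its baits, chr19:42628923-42637124 and chr19:42693183-42701975, had 27 and 31 calls, more than 96.9% and 97.9% of GM12878 baits had, and 31 of the 58 lay inside the gene. The highest scores were 19.43 on 33 reads and 17.34 on 32 reads, from the outer bait to introns at chr19:42607203-42612999 and chr19:42617296-42620716, 87.5 and 78.6 kb away. The latter holds the stretch shown above. The baits shared 14 partner fragments, 51.9% and 45.2% of their partners, among them a fragment in *CIC*, a transcriptional repressor gene, at 12.80 and 12.63.

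Beyond the gene, 17 *POU2F2* calls reached starts of other protein-coding genes. The *CIC*, *PAFAH1B3* and *PRR19* fragment and the inner bait called each other at 10.77 and 10.41 on 27 reads, and *CEACAM1*, a cell adhesion gene, called *POU2F2* over 338.3 kb at 11.14 on 6 reads. In mESCs *Pou2f2* had 32 calls, of which 28 lay upstream and none inside the gene as annotated. The annotated gene is 40.0 kb long in mouse and 110.5 kb in human, so the counts inside it are not alike. Some GM12878 partners inside *POU2F2* aligned to mouse fragments called at 18.2 and 14.9, which lie upstream of the annotated mouse gene. *Pafah1b3* and *Dedd2* gave the highest mouse scores, 20.07 and 20.02, both as baits. The pairs of *POU2F2* with *CIC*, *DEDD2*, *GSK3A* and *PAFAH1B3* were called in both lists.

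*POU2AF1*, the coactivator that binds octamer factors on DNA, was joined to its own relatives. Its bait had 3 calls and 2 more ended at it, all downstream. The strongest reached an intron of *POU2AF2*, at chr11:111147996-111152041, with 9.85 on 17 reads over 174.2 kb, and the *POU2AF2* promoter, listed as C11orf53, called *POU2AF1* with 7.61 on 12 reads over 195.9 kb. The fragment listed as *COLCA1* and *COLCA2*, the latter now named *POU2AF3*, and *POU2AF1* called each other at 7.94 and 5.55 on 18 reads over 150.4 kb. *POU2AF2* and *POU2AF3* encode coactivators of the same family. The remaining call spanned 946.0 kb to a fragment outside protein-coding genes, with 7.05 on 7 reads. *Pou2af1* was not named in the mESC list.

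The ETS factors had few contacts. *SPI1*, a master regulator of myeloid and early lymphoid cells, had 2 calls in GM12878: *FNBP4*, 383.7 kb away, with 8.13 on 10 reads and 7.57 in return, and the zinc transporter gene *SLC39A13*, 20.5 kb away, with 5.57 on 31 reads. In the mouse list the gene appears under its older symbol *Sfpi1*, outside the rule, with 17 calls from its bait; the strongest was 14.26 on 105 reads to its own gene 5.27 kb away, and *Slc39a13* and *Sfpi1* called each other at 12.87 and 10.66 on 85 reads over 9.09 kb. *SPIB* shares a bait fragment of 26 kb with *MYBPC2* and *POLD1*, so that its 2 calls cannot be assigned to 1 gene. They reached the neighbouring *POLD1* fragment, named for the DNA polymerase delta catalytic subunit, at 10.44 on 25 reads over 31.8 kb, and *GPR32* at 7.62 on 8 reads over 350.6 kb. In mESCs *Spib* had 3 calls, to *Nr1h2*, *Pold1* and *2310044H10Rik*, all within 33.8 kb.

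*BCL11A* had a single call in GM12878, with the low score of 5.47 on 8 reads, to a fragment outside protein-coding genes 217.3 kb downstream. In mESCs it had 14. *Bcl11a* and *Otx1*, a homeobox gene of the developing brain, called each other over 2076.0 kb on 25 reads, with scores of 62.41 from *Otx1* and 37.69 from *Bcl11a*, and 3 neighbouring fragments of *Otx1* were called as well, at 24.12, 15.47 and 6.89. The longest call of any member was also to *Bcl11a*, from the homeobox gene *Meis1* over 5060.1 kb, at 6.27 on 5 reads.

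*TCF3*, which encodes E proteins that bind the E-box, had 22 calls from 2 baits at chr19:1611099-1617736 and chr19:1650905-1661304, with up to 101 reads. The inner bait had 10 calls, all upstream, and the outer had 12, of which 6 lay on either side. The highest scores from the outer bait were 12.04 on 45 reads to *ATP8B3*, 132.2 kb upstream, and 11.83 on 49 reads to a fragment outside protein-coding genes 110.3 kb downstream. As other end, *TCF3* was called from the fragment of *MBD3* and *UQCR11* at 14.35 on 27 reads over 18.3 kb and from *MEX3D* at 11.23 on 19 reads over 44.6 kb; MBD3 is a subunit of the NuRD chromatin complex. In mESCs *Tcf3* had 1 call, at 5.65 on 22 reads. The baits shared 3 partners, 30% and 25%.

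Set side by side, the 8 members named in both lists had a median of 13.5 calls in GM12878 and 3.5 in mESCs, against 4 and 4 over all 8690 shared symbols. Of these 8, 3 (*PAX5*, *IKZF1* and *TCF3*) had at least 2-fold more calls in GM12878, where 28.2% of the shared symbols did, and 3 (*EBF1*, *IKZF3* and *BCL11A*) had at least 2-fold more in mESCs, where 29.8% did. *POU2F2*, with 58 and 32 calls, and *SPIB*, with 2 and 3, had neither. The members were thus split between the directions, and with so few of them these tallies sit near the background. The medians above leave out *POU2AF1*, with 3 calls in GM12878, and *SPI1*, with 2 there and 17 in mESCs as *Sfpi1*. Over all 10 members the GM12878 median was 5. Calls were summed over the baits of a symbol, so these counts also depend on the number of baits. *PAX5*, *POU2F2* and *TCF3* each had 2 listed fragments in human and 1 in mouse. Per bait, *PAX5* had 16 and 9 calls in GM12878 against 0 in mESCs. *POU2F2* had 27 and 31 against 32, and *TCF3* had 10 and 12 against 1.

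Other gene lists gave context. Of 24 further B lineage regulators 22 were named in GM12878, with a median of 8 calls, and *ETS1* (52), *IRF4* (45) and *PRDM1* (43) had the most; of 18 in both lists, 9 were at least 2-fold higher in GM12878 and 4 in mESCs. Of 20 B cell target genes 18 were named, with a median of 4 calls and most for *BLK* (29) and *CXCR5* (23), and of 11 in both lists 3 were higher in each. Of 17 factors of other blood lineages 12 were named, with a median of 5 and most for *NFE2* (16), *CEBPB* (14) and *KLF1* (7), and of 10 in both lists 2 were higher in GM12878 and 6 in mESCs. Over all 8690 shared symbols, 28.2% were higher in GM12878 and 29.8% in mESCs, and the median over all GM12878 symbols was 3 calls. The lists are short, and their differences from these shares were not tested.

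Promoter-to-promoter pairs were compared by name. In GM12878, 22 pairs of a member and another gene had both symbols in both lists, and 8 of them (36.4%) were also called in mESCs, against 35.5% of 10275 such pairs over the whole list. In the opposite direction it was 8 of 20 (40%), against 31.2%. The shared pairs were the 3 of *IKZF3* and 4 of *POU2F2* given above and *SPIB* with *POLD1*. Names differ between the lists, and by annotated starts the pairs of *IKZF1* with *ZPBP*, *IKZF3* with *CDK12*, *POU2F2* with *PRR19* and *TMEM145*, and *SPI1* (as *Sfpi1*) with *SLC39A13* were also called in both. These are pairs of genes and not of matching fragments. For *CDK12* the called mouse fragment was not the one that the human fragment aligned to. The human *POLD1* fragment likewise aligned to chr7:51791631-51799788 (mm9), which was not called with *Spib*. The human *SPIB* bait fragment also carries *POLD1*, so this pair, counted among the 8, cannot be assigned to *SPIB*.

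Partner fragments were also compared by sequence. *Sfpi1* was taken for *SPI1* here, and *POU2AF1* was left out. Of 124 distinct fragments called with the other members in GM12878, 64 aligned over at least 300 bases to the mouse locus, and in 17 (26.6%) the aligned mouse fragment was called with the same gene. For fragments in the same spans that were not called in GM12878 it was 23 of 242 (9.5%). *POU2F2* gave 13 of the 17, out of 31 aligned fragments, and for the fragments around it that were not called in GM12878 it was 6 of 13. None of 11 aligned *PAX5* fragments and none of 6 aligned *TCF3* fragments met a called mouse fragment. In mESCs, however, each of these genes had only 1 call at either end, so a match was hardly possible and nothing can be concluded. For fragments not called in GM12878 it was 0 of 29 for *PAX5* and 0 of 7 for *TCF3*. Their fragments are counted in the 64 and the 242.

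Finally, the mESC calls of members were set against Hi-C of the same cell type, where bin pairs of 25 kb with a false discovery rate under 0.05 were used. Of 97 member calls under 1 Mb, 20 (20.6%, Wilson interval 13.8 to 29.7) lay within such a pair, against 11.6% of all mESC calls under 1 Mb, but these 20 came from 6 bin pairs. All 4 *Ebf1* calls did, and the bin pair with the gene-end contact had 34 Hi-C read pairs where 5.38 were expected. *Ikzf3* had 12 of 27, and the pair with *Neurod2* had 46 read pairs against 12.9. *Bcl11a* had 4 of 14, with 22 read pairs against 6.08 and 5.91.

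*Pou2f2* had 0 of 40, which allows a share of up to 7.5%, and *Sfpi1* 0 of 24, up to 12.5%, if calls are taken as independent. Without the threshold, 13 of the 40 *Pou2f2* calls (32.5%) and 9 of the 24 *Sfpi1* calls (37.5%) lay in listed bin pairs. Those of *Pou2f2* had 7 to 10 read pairs against 1.46 to 3.37 expected. None of these bin pairs came near the threshold, the lowest false discovery rate being 0.796, for *Sfpi1*. The share of all mESC calls in listed pairs without the threshold was not computed. The *Bcl11a* calls of 1 Mb or more, to *Otx1* and *Meis1*, lay within no listed 1-Mb pair (0 of 6, which allows a share of up to 50%). However, 5 of the 6 were to *Otx1* and so were not independent. Of all mESC *cis* calls of 1 Mb or more, 59.4% lay within a pair. That share covers every longer distance and is not matched to the distances of the *Bcl11a* calls. The *Otx1* contact thus had the highest CHi-C score of the members and no counterpart among the listed Hi-C pairs.

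**Figure D5:**
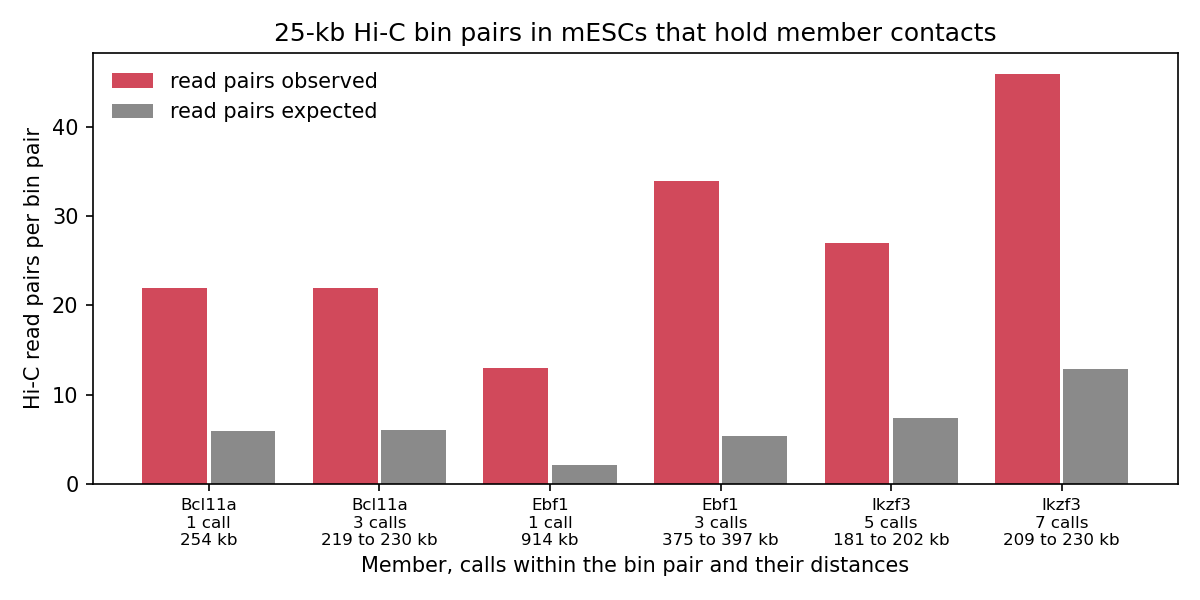
Bars give the Hi-C read pairs observed (red) and expected (grey) in mESCs for each 25-kb bin pair that holds calls of a member, labelled with the number of calls and the range of their distances. The observed counts run from 13 to 46 and exceed the expected in all 6, which the listing of significant pairs requires.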

How the data were processed

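Promoter CHi-C of GM12878 (3 replicates) and mESCs (2 replicates) and Hi-C of mESCs (1 library) were analysed, grouped by the GEO labels. The authors aligned reads with Bowtie 1.1.0, per the submitters' processing notes, within a Hi-C pipeline that filters artefact products, and called contacts with CHiCAGO on all replicates of a cell type together, on hg19 and mm9. The deposited CHiCAGO score is a weighted, soft-thresholded p-value on a log scale, listed from 5 upwards, and the deposited read number is a rounded weighted mean over replicates, used here as a score and not as a count. The authors made the Hi-C lists with HOMER 4.7: the deposited interaction reads are counts per bin pair, the expected reads are a modelled signal and the false discovery rate is an adjusted p-value. Their totals, Z-scores, log p-values and drawing widths (10 columns) were not used. Depth per library was not analysed here, since the lists hold calls only. The paper reports unequal read-pair totals among the replicates of each cell type. It left GM12878 replicate 1, likely of poorer quality, out of the estimation of p-value weights, but calling used all replicates.

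Line pairs were read as bait and other end, names were split and transcript suffixes removed, and distance was taken between fragment midpoints. Genes came from GENCODE v44lift37 and vM1, and fragments were aligned with blastn 2.17.0 (at least 300 bases and 70% identity, E-value 1e-10). Python 3.11.15, pandas 2.3.3, numpy 2.4.6, scipy 1.17.1 and matplotlib 3.10.9 were used. Reading and overlap steps were tested on simulated data, and 100 of 100 member calls placed in 2000 were found. With 1 merged list per cell type no test was possible, and shares carry 95% Wilson intervals, or for 0 calls the limit of 3 calls over the total. A symbol was called higher at 2-fold or more with at least 3 calls. Alternatives were stricter scores and reads, each fragment pair once, older mouse symbols, other distance, scaling and overlap rules and other Hi-C thresholds. Named were the members, genes on their bait fragments, the genes at the 3 highest-scoring calls and the longest call of each, shared pairs, and the top 3 of each gene list, of which some are not reported here; further genes were named after their values were seen. The members and lists were chosen with earlier results of these data known.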

Additional observations from a re-analysis of the deposited data

Results flagged for a closer look

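The mESC list holds 24 calls at either end of *Sfpi1*, the older symbol of mouse *Spi1*, which a search by the members' current symbols leaves out. They were flagged as a signal in data outside the main comparison. Of these calls, 17 came from the *Sfpi1* bait at chr2:90920962-90924393 (mm9) and 7 from other baits, and 16 of the 17 lay downstream. Counted in, they bring the mESC calls of members from 103 to 127.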

How the results depend on the processing

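Under the alternatives run, 32 of 37 values stayed within the limits set, and 5 moved beyond them. The limits were 1.5 times for a count and the interval of the main value for a share or median. A change of direction was not scored. At a score of at least 10, GM12878 kept 33 member calls and mESCs 30, and the median distance rose to 139.3 kb in GM12878 and 210.0 kb in mESCs, on 28 and 18 calls. With every listed Hi-C bin pair and no false discovery rate threshold, the share of mESC member calls within a pair was 38.1% instead of 20.6%. Of the added calls, 13 were of *Pou2f2*, and no share of all mESC calls was computed for this setting. With bins at their nominal bounds and the threshold kept, an alternative chosen after seeing the data, the member share was 18.6%. Members with at least 2-fold more calls in GM12878 numbered 2 at a score of at least 10, 4 with each fragment pair once and 4 on at least 10 reads. No paired analysis was possible because calls were made on merged replicates and the columns carry no replicate number, and leaving out replicates was not possible for the same reason. Read numbers of 3 to 10 underlie several of the longest contacts, and a call missing from a list is not evidence that a contact is absent.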
